A study of Mus musculus and blank sample with 191 samples.

Results

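Genes of stratified squamous epithelium were followed in the mouse uterus, as 10 listed symbols of 19962 measured targets: the keratins Krt5, Krt14, Krt15, Krt17, Krt13, Krt4 and Krt6a, the transcription factor gene Trp63, and the adhesion genes Dsg3 and Col17a1. They were chosen as a list and not by their values, and all 10 were measured in every region. Expression was read on the GeoMx whole-transcriptome assay, in which barcoded probes bound to fixed tissue are released from outlined regions and counted. The labels named PV/N mice, which carry one copy of the PV mutation of Thra1, the gene of thyroid hormone receptor alpha 1, in the germ line and therefore in all cells, and N/N mice, which are wild type. The PV receptor does not bind hormone and blocks the normal receptor. By the study's methods the mice were females matched for estrous stage, and all tissue was formalin-fixed and cored into arrays, and the labels name no treatment. Labelled ages, read as months, ran from 2.4 to 6.3 in the 6 PV/N mice (called PV1 to PV6) and from 4.0 to 9.0 in the 8 N/N mice (WT1 to WT8). Each mouse gave regions labelled epithelium or stroma, and surface and glandular epithelium cannot be told apart by the labels.

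Stratified squamous epithelium, as in skin and vagina, rests on a basal layer that divides and renews the tissue. Basal cells make Krt5 and Krt14, a pair of keratins that assemble into filaments, together with Krt15 and Krt17, and they depend on the transcription factor encoded by Trp63. Col17a1 is a transmembrane collagen that holds basal cells to the basement membrane, and Dsg3 is a cadherin of the desmosomes that join neighbouring cells. Krt4 and Krt13 mark the layers above the basal one in internal squamous linings, and Krt6a is induced in stressed or fast-renewing epithelium. The normal uterine lining is a single layer of columnar cells and makes simple keratins instead. On build GRCm38 (GENCODE gene models) the type I keratin genes Krt13, Krt14, Krt15 and Krt17 lie between 100117327 and 100261029 on chromosome 11, the type II genes Krt4, Krt5 and Krt6a between 101689910 and 101924735 on chromosome 15, Trp63 at 25683763 to 25892102 on chromosome 16 and Col17a1 at 47646344 to 47692094 on chromosome 19.

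Of 189 regions, the 95 of the first plate carried the analysis: 31 PV/N and 29 N/N epithelial regions, and 21 PV/N and 14 N/N stromal regions. WT6 had no stromal region there, and PV2 had 1 region in each compartment. A region held 61691 to 3130397 counts (median 653387). All 95 regions lay on the side of their compartment label by a score of columnar epithelium genes minus fibroblast genes. Krt8, a simple keratin, lay at 390 to 1887 CPM (its count scaled to a common library size, as in all CPM values here) in the 60 epithelial regions and at 6.93 to 161 CPM in the 35 stromal regions. On the second plate, the longest run of wells whose score fitted the label of the next well was picked. It held 57 wells (regions 99 to 155), which all fit that label because of how they were picked. Of these 57, 21 fitted their own label, while the other wells of the plate did so in 37 of 37 cases. Second-plate values are therefore given separately, as labelled. Regions of one mouse share the animal, and tests therefore ran over mice.

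The squamous genes were near background in most regions. A count was called above background where it exceeded a region's detection limit, the geometric mean of 210 negative-control probes times the square of their geometric SD. In PV/N epithelium 28 of 310 pairs of region and gene exceeded the limit (9.03%), against 1.74% for the negative probes themselves in the same regions. In N/N epithelium 5 of 290 pairs did (1.72%), against 1.26% for the negative probes. In PV/N stroma 14 of 210 pairs did (6.67%), and in N/N stroma 6 of 140 (4.29%), against 2.04% and 1.36% for the negative probes. Over all first-plate regions 5.58% of the pairs of these genes exceeded the limit, against 48.95% of the pairs of all targets. No N/N epithelial region had more than 1 of the 10 genes above its limit, while 6 of 31 PV/N epithelial regions had at least 2. Depth differed between these regions: limits ran from 1.51 to 19.4 counts in PV/N epithelium and from 4.95 to 31.2 in N/N epithelium. In a shallow PV/N region 2 counts could pass, as for Krt15 in PV2. A count below the limit was not detectable at this depth, which is not absence.

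Summed per mouse, levels stayed low in 13 of the 14 mice, though mostly in the upper part of the negative probes. Over the 130 values of 10 genes in the epithelium of the mice other than PV3, levels lay between 2.55 and 32.4 CPM (median 7.41). None exceeded all 210 negative probes of its mouse. The median value lay above 181.5 of the 210, and 29 of the 130 lay above 200 of them. In PV3, 4 of 10 values exceeded all 210. Those 4 genes were Krt5, Krt14, Krt15 and Col17a1.

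**Figure D1:**
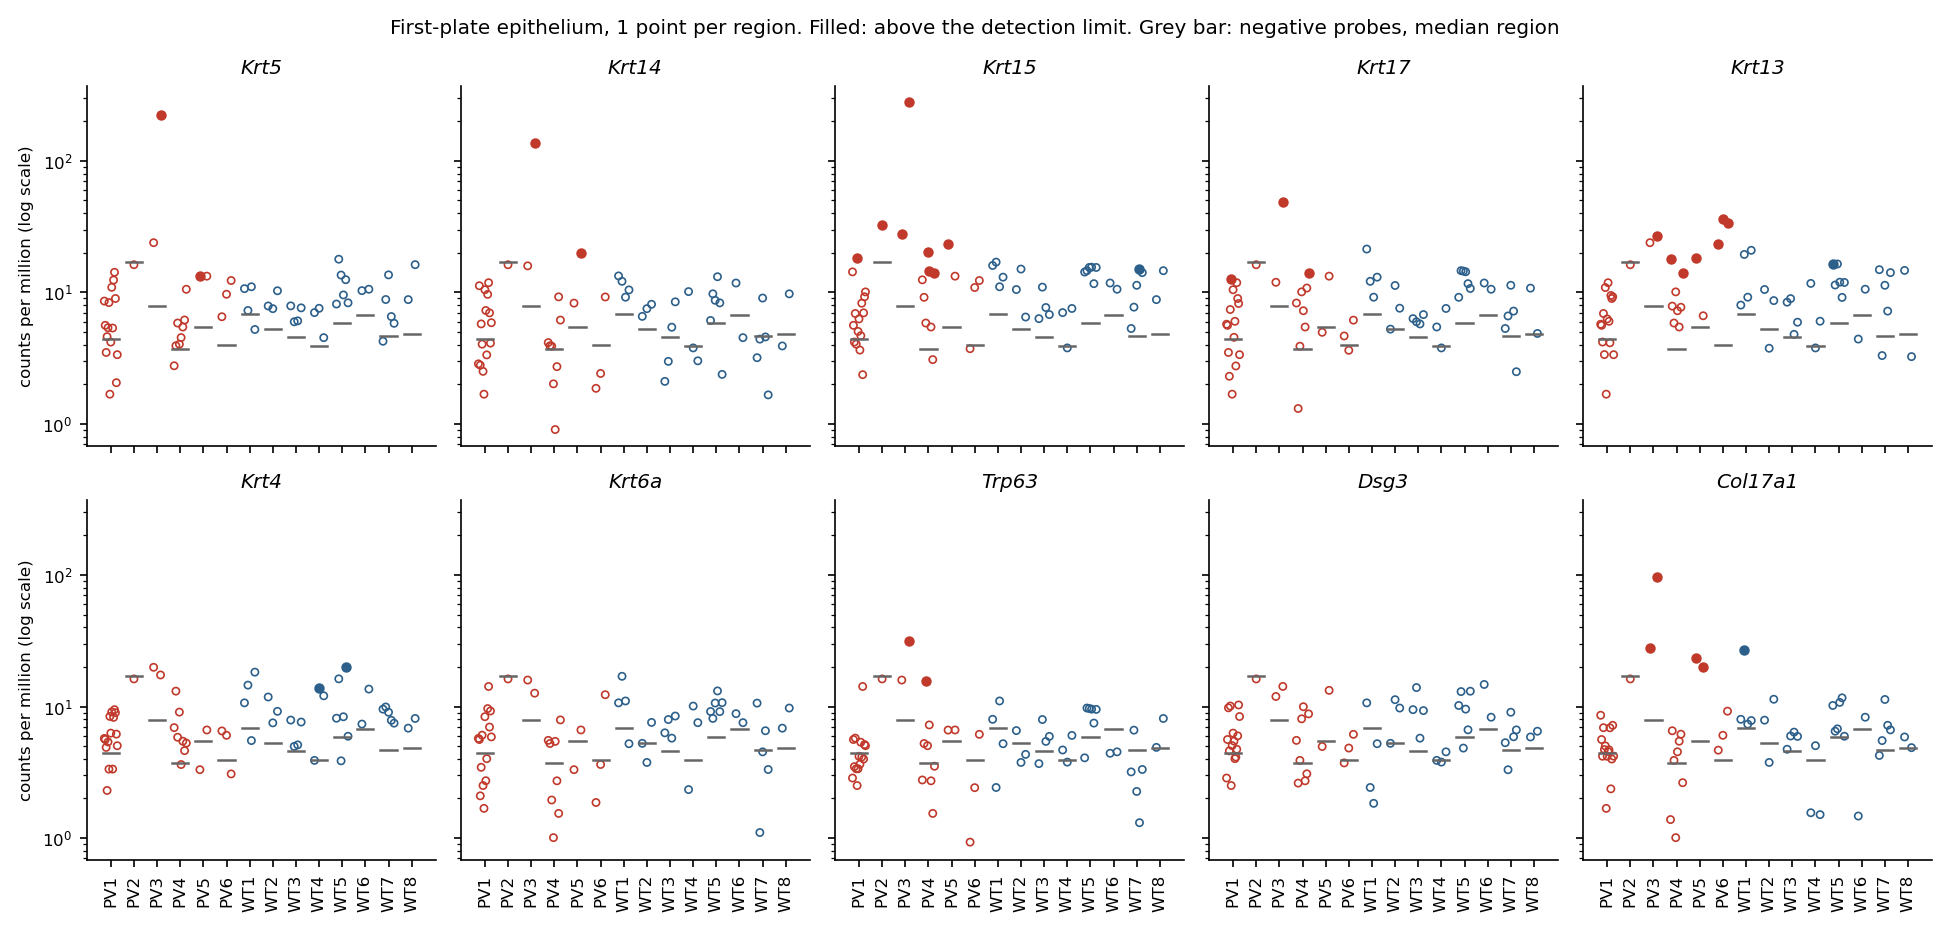
Level in CPM (log scale) of the 10 genes in each of the 60 epithelial regions of the first plate, by mouse (red PV/N, blue N/N). Filled points exceeded the region's detection limit and grey bars mark the negative probes in the median region of the mouse. One PV3 region stands apart at 221 CPM for Krt5 and 278 CPM for Krt15, and all 3 PV6 regions are filled for Krt13.

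Counts far above all other epithelial regions of the first plate came from 1 region. In region 23, an epithelial region of PV3 with 633238 counts and a limit of 14.2, Krt5 had 140 counts (95% Poisson interval 118 to 165, counting error only), and the highest count among the other 59 epithelial regions was 19. Krt15 had 176 counts (151 to 204) against a highest of 24 elsewhere, and Krt14 had 87 (69.7 to 107) against 20. Col17a1 had 61 counts (46.7 to 78.4) against 21. Relative to the median CPM of the other 59 regions, Krt5 was 28.1-fold higher, Krt15 26.3-fold, Krt14 22.5-fold and Col17a1 16.2-fold. Those medians, 5.94 to 10.6 CPM, were themselves near the negative probes, so the folds depend on background and are better read as lower bounds.

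Krt17 and Trp63 were also high in region 23, by smaller folds. Krt17, a keratin of basal and wounded epithelium, had 31 counts (21.1 to 44.0) and was 6.62-fold above the median of the others. Trp63 had 20 counts (12.2 to 30.9) and was 6.27-fold above it. So 6 of the 10 genes were at least 4-fold higher and above the limit, against 1.09% of all targets (217 of 19962). This is a description of 1 region, with no replicate and no test.

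The 4 remaining genes did not stand out in that region. Krt13 had 17 counts, 2.99-fold above the median of the others. Krt4 had 11, Dsg3 9 and Krt6a 8 counts, all below the limit of 14.2. With Krt13 included, 7 of 10 genes exceeded the limit, beside 49.3% of all targets.

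The other epithelial region of PV3 on this plate was far below region 23 for most of the basal genes. Region 18 held 251659 counts, with 6 for Krt5, 7 for Krt15, 4 for Krt14 and 7 for Col17a1. At the CPM of region 23 its depth would have given 55.6, 69.9, 34.6 and 24.2 counts. These lie above the upper 95% Poisson limits of the counts in region 18, which were 13.1, 14.4, 10.2 and 14.4 counts. Krt17 had 3 counts against 12.3 at the CPM of region 23, above its upper limit of 8.77. Trp63 had 4 against 7.95, within its upper limit of 10.2, so its level cannot be told apart from that of region 23. By CPM, some values of region 18 were still high among the remaining regions. Krt5 (23.8 CPM) and Col17a1 (27.8 CPM) exceeded the highest of the 58 regions other than 18 and 23 (17.9 and 26.7 CPM). The 10 genes, on 3 to 7 counts each, were 1.63- to 4.69-fold above the median of those regions. Over all targets the median in region 18 was 1.32-fold. Only Krt15 and Col17a1 exceeded its limit of 6.50 counts. Krt5, with 6 counts, did not, so its level there cannot be told from background. Elsewhere at most 1 gene per region exceeded the limit and was also at least 4-fold above the median of the other regions: Col17a1 in region 18 and in a WT1 region, and Krt13 in a PV6 region.

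Summed columnar and stromal markers in region 23 lay within the range of the other epithelial regions. All 12 columnar epithelium genes were above the limit, with a median of 1.31-fold relative to the other regions and a summed level of 5316 CPM, against 2516 to 8224 CPM elsewhere. The 10 fibroblast genes summed to 1099 CPM (535 to 2885 elsewhere) with a median of 0.715-fold, from 0.214-fold for Dcn to 3.38-fold for Fbln1, and the 8 smooth muscle genes to 232 CPM (77.1 to 362). None of the 4 mesothelium genes (Msln, Upk3b, Wt1 and Lrrn4) was above the limit. Of 6 leukocyte markers 4 were, with a sum of 262 CPM (48.3 to 465 elsewhere). In such a region, more squamous cells and more squamous RNA per cell cannot be told apart.

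**Figure D2:**
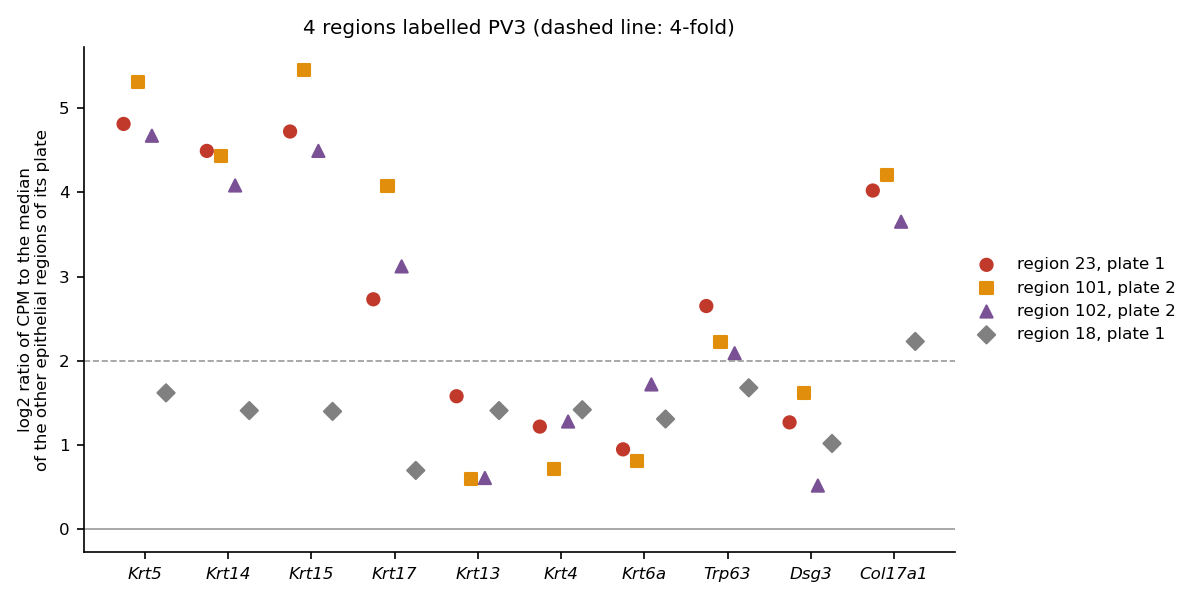
Ratio of CPM in each of 4 regions labelled PV3 to the median of the other epithelial regions of its plate, on a log2 scale, for the 10 genes. The dashed line marks 4-fold. Krt5, Krt14, Krt15, Krt17, Col17a1 and Trp63 lie above the line in regions 23, 101 and 102, while region 18 lies below it for all genes but Col17a1.

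Sequences around annotated starts were read from the RefSeq promoters of mouse build GRCm38.p6, each from 250 bases before to 50 bases after a start. Entries were found for 4 of the 10 genes. The one for Krt14 lies inside the GENCODE gene model, which begins at 100207548, and is not shown. Those of Krt5 and Col17a1 are shown because both genes were high together in region 23, and that of Krt13 because it stayed under 4-fold there. All lie on the minus strand and are written 5′ to 3′ along the gene. Capitals mark the p53-family half-site (the binding motif that the Trp63 protein shares with its relatives) in Krt5 and Col17a1, and CCACCC on either strand, a core of sites for Krüppel-like factors, in Krt13 only, although Krt5 and Col17a1 hold it too.
Krt5, chr15:101712856-101713155: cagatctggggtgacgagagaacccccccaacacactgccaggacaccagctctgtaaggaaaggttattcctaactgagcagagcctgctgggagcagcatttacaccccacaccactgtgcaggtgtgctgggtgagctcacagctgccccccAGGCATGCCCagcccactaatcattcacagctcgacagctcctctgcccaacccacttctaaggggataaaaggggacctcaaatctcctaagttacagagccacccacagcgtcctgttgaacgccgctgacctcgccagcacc
Col17a1, chr19:47691993-47692292: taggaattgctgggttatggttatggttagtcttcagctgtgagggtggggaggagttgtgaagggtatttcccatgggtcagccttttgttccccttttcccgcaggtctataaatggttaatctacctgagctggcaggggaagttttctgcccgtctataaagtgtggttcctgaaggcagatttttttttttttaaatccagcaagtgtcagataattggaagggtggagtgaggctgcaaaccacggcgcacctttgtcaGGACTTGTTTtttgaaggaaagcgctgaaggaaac
Krt13, chr11:100121517-100121816: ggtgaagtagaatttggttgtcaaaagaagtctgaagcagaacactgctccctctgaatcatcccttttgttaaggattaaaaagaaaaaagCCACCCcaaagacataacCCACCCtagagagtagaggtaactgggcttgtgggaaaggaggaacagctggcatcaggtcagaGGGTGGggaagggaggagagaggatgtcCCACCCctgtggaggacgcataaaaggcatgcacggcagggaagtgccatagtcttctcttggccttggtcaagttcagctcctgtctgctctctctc
The half-site occurred once in the Krt5 promoter, 95 bases before the start, and once in that of Col17a1, 15 bases after it. It occurred in 8.36% of 32851 promoters of this length. CCACCC, found in 31.5% of them, occurred 4 times in Krt13, 2 times in Col17a1 and 1 time in Krt5. TGANTCA, the motif of AP-1 factors (7.81% of promoters), occurred 1 time in Krt13, and TATAAA (13.6%) occurred 2 times in Col17a1. Krt13 has another start in the table, at chr11:100120528-100120827, whose window (not shown) holds TGANTCA 2 times and CCACCC 0 times. Both strands were searched and no capitals overlapped another of these motifs. A match of letters describes the sequence only. The other 6 genes are named without a sequence.

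Krt5, Krt14 and the remaining genes were then compared between genotypes over mice, to ask whether PV/N epithelium as a whole differed. Counts were summed per mouse and fitted over all 19962 targets. The quasi-likelihood test of edgeR called 0 of the 10 genes at an adjusted p under 0.05, and 0% of all targets (1466 had an unadjusted p under 0.05, and the lowest adjusted p was 0.0514). DESeq2 called 41 targets, none of them among the 10 genes, but it gave an adjusted p for only 11799 of the 19962 targets. Most of the 10 genes had none and could not be called by it. The limma fit on single regions, with a random term for the mouse, called 1. Of the 10 fitted differences 8 were positive, with a median log2 fold change of 0.59 (PV/N over N/N), beside -0.02 over all targets. Without region 23 the median of the 10 was -0.01.

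For Krt5 the fitted difference came from 1 region. It lay at log2 CPM 2.82 at the lowest, 3.56 at the median and 7.00 at the highest in PV/N mice, and at 2.93, 3.24 and 3.54 in N/N mice. The highest was PV3, where 95.9% of the summed Krt5 counts came from region 23, and the next highest was PV5. The groups overlapped: 4 PV/N mice lay above all N/N mice, and 1 lay below all. Among those 4 was PV2, which had 1 count in a shallow region. The log2 fold change of Krt5 was 1.72 ± 0.56 (SE, edgeR adjusted p = 0.574), and 0.01 ± 0.22 without region 23 (edgeR adjusted p = 0.995).

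Krt15, a keratin of basal and stem-like cells, was higher in some other PV/N mice too, without passing the adjusted threshold. It lay at log2 CPM 3.23, 4.18 and 7.32 (lowest, median and highest) in PV/N mice and at 2.85, 3.48 and 3.82 in N/N mice. Above all N/N mice were 4 PV/N mice, of which PV2 had only 2 counts. Its log2 fold change was 1.91 ± 0.53 (SE, edgeR adjusted p = 0.461). The difference of the mean per-mouse log2 CPM was 1.06 (exact permutation test, two-sided, p = 0.0206 over 3003 divisions, unadjusted). It was 0.588 without region 23 (exact permutation p = 0.0326), where the edgeR log2 fold change was 0.34 ± 0.23. It was the gene above its limit in most PV/N epithelial regions, 8 of 31 in 5 of the 6 mice, against 1 of 29 N/N regions. Those 8 included the PV2 region with 2 counts. The median limit was lower in PV/N epithelium (11.3 counts) than in N/N epithelium (14.7 counts). The median region was not higher for Krt15 in PV/N, at 9.16 CPM against 11.3 CPM in N/N epithelium.

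For Krt14 and Col17a1, as for Krt5, region 23 set the edgeR value. Krt14 lay at log2 CPM 2.38, 3.16 and 6.32 in PV/N mice and 2.23, 2.90 and 3.34 in N/N mice, with PV3 the highest. Above all N/N mice lay 3 PV/N mice, among them PV2 with 1 count. For Krt14, PV3 remained far above the rest. Its log2 fold change was 1.34 ± 0.56 (SE, edgeR adjusted p = 0.660), and -0.13 ± 0.22 without region 23. Col17a1 lay at 2.27, 3.31 and 5.90 in PV/N mice and at 1.72, 2.88 and 3.47 in N/N mice. PV3 and PV5 were its highest mice, with both regions of each above the limit. Its log2 fold change was 1.13 ± 0.51 (edgeR adjusted p = 0.669), and 0.10 ± 0.34 without region 23. Krt17 had 0.31 ± 0.31 (edgeR adjusted p = 0.854).

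Krt13 was highest in another mouse. By their labels, PV6 was the oldest PV/N mouse and PV3, which holds region 23, the next oldest. Age and mouse cannot be told apart in these values. In all 3 epithelial regions of PV6 it exceeded the limit, with 25, 30 and 22 counts. These were 23.3 to 36.3 CPM, against 1.68 to 26.9 CPM in the other 57 epithelial regions, where the highest was region 23 of PV3. The ranges overlapped. Krt5, Krt14 and Krt15 exceeded the limit in none of those 3 regions. Per mouse, Krt13 lay at log2 CPM 3.08, 3.85 and 5.27 (lowest, median and highest) in PV/N mice and at 3.00, 3.34 and 3.67 in N/N mice, with 3 PV/N mice above all N/N mice. Its log2 fold change was 0.86 ± 0.29 (SE, edgeR adjusted p = 0.586), 0.82 ± 0.30 without region 23, and 0.33 ± 0.24 without PV6. The mean per-mouse difference was 0.647 on the log2 scale (exact permutation p = 0.0276, unadjusted). The exact tests were 20 on summed counts, the other 8 in epithelium giving p between 0.14 and 0.526, and 20 more on the typical region gave p of at least 0.0606.

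Trp63 and Dsg3 were at background in nearly all mice. Trp63 lay at log2 CPM 2.00, 2.82 and 4.43 in PV/N mice and at 1.95, 2.59 and 3.05 in N/N mice, and exceeded the limit in 2 PV/N regions, region 23 and a PV4 region with 8 counts. Its log2 fold change was 0.32 ± 0.31 (edgeR adjusted p = 0.849). Dsg3 exceeded the limit in 0 of 60 epithelial regions, and its log2 fold change was 0.02 ± 0.22. Krt4 exceeded it in 0 of 31 PV/N and 2 of 29 N/N regions, with a log2 fold change of -0.24 ± 0.19. Krt6a exceeded it in no epithelial region, with -0.29 ± 0.20. The edgeR adjusted p-values of these 3 were 1.00, 0.818 and 0.775.

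**Figure D3:**
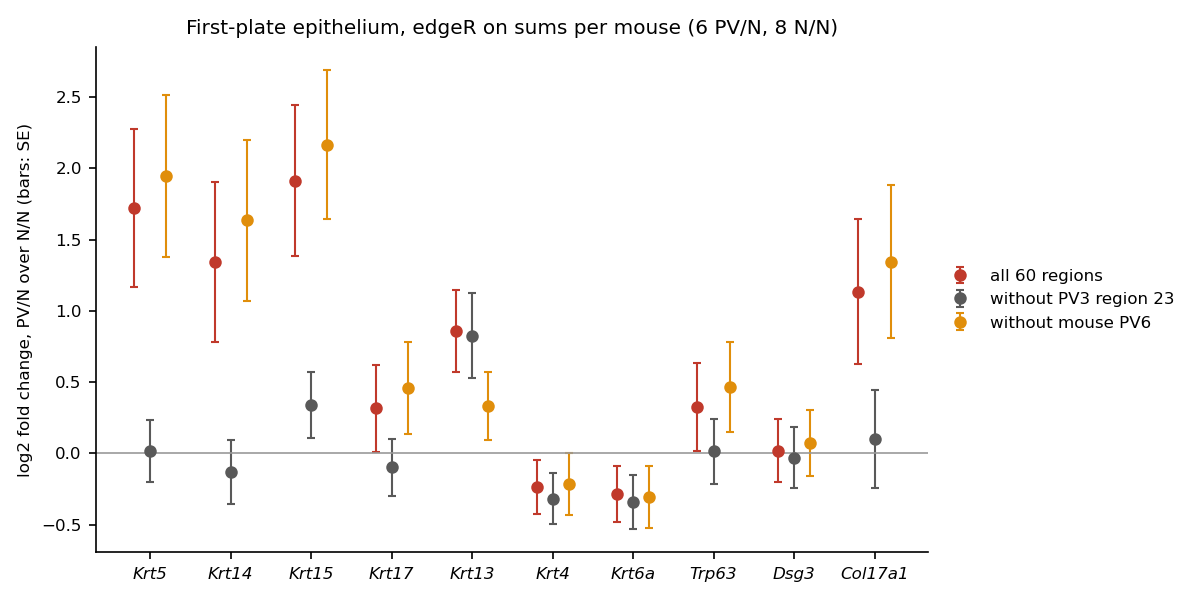
Log2 fold change of PV/N over N/N for each gene in first-plate epithelium, fitted by edgeR on sums per mouse, with SE bars, over all 60 regions, without region 23 of PV3 and without mouse PV6. Leaving out region 23 brings Krt5, Krt14 and Col17a1 to between -0.13 and 0.10, and leaving out PV6 brings Krt13 from 0.86 to 0.33.

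The typical region of a mouse differed less than its sum. The median log2 CPM over a mouse's regions was compared by limma over all targets, which called 0 of the 10 genes and 0% of all targets (841 at an unadjusted p under 0.05). Col17a1 had the largest difference of the 10, 0.79 ± 0.34 (SE, limma adjusted p = 1.00), then Krt15 with 0.64 ± 0.31 and Krt13 with 0.55 ± 0.27. For Krt5 it was 0.45 ± 0.31. PV3 had only 2 regions, so its median still contained region 23, and without PV3 these 4 values were 0.46, 0.27, 0.46 and 0.05.

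Background and depth moved with some of these values. The median negative probe lay at 3.98 to 16.2 CPM in the epithelium of PV/N mice and at 4.38 to 7.58 CPM in that of N/N mice. The highest was PV2, whose 1 region held 61691 counts and in which 9 of the 10 genes had 1 count, the lowest value in the deposited table. PV3 followed with 7.91 CPM. The part of background in the differences was not tested beyond subtracting it, after which no gene of the 10 passed the threshold.

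In stroma the 10 genes gave no call either. The edgeR test called 0 of the 10 and 0% of all targets (706 at an unadjusted p under 0.05; DESeq2 called 0). Fitted log2 fold changes ran from -0.50 ± 0.25 for Col17a1 to 0.17 ± 0.26 for Krt5, with a median of -0.14 beside -0.03 over all targets. Col17a1 lay at log2 CPM 2.60, 3.46 and 3.71 in PV/N stroma and at 3.41, 3.74 and 4.25 in N/N stroma. Below all N/N mice lay 2 PV/N mice, and the difference was -0.362 (exact permutation p = 0.0787 over 1716 divisions, unadjusted). In the typical stromal region limma called 0 of the 10 and 0% of all targets (617 at an unadjusted p under 0.05), with differences from -0.30 for Col17a1 to 0.39 for Trp63.

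A few stromal regions held several of the genes. Region 25 of PV3 had 5 above its limit of 6.44, with 9 counts for Krt5, 10 for Krt15, 7 for Krt17, 9 for Krt13 and 8 for Krt6a, beside 54.1% of all targets above that limit. One stromal region each of PV2 and WT5 had 3, beside 50.6% and 55.1% of all targets. No stromal count of the 10 genes exceeded 27, which Dsg3 reached in a WT7 region.

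Between compartments the basal genes were compared last. The comparison within the 13 mice that had both compartments called 56.9% of all targets (11352 of 19962 by edgeR, with the mouse as a block). Trp63, Dsg3 and Col17a1 were not among them, with log2 differences of epithelium over stroma of -0.20 ± 0.16, -0.24 ± 0.14 and 0.06 ± 0.23 (edgeR adjusted p = 0.283, 0.156 and 0.850). Keratin staining helped to choose the regions, so the keratin values are given without a reading: 1 of 7 was called, Krt6a at -0.38 ± 0.11 (edgeR adjusted p = 0.0103), and the others lay between -0.23 and 0.48. Krt6a exceeded the limit in no epithelial region, and in stroma in 1 of 21 PV/N and 0 of 14 N/N regions. In the median mouse the negative probes lay at 7.26 CPM in PV/N and 7.83 CPM in N/N stroma, against 4.49 and 5.35 CPM in epithelium. The part of background in the compartment values was not tested. The genotype by compartment term called 0 of the 10 genes and 0% of all targets (1275 at an unadjusted p under 0.05). It was largest for Col17a1, at 1.03 ± 0.41, and Krt15, at 1.00 ± 0.42 (edgeR adjusted p = 0.718 and 0.753).

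Other genes of squamous epithelium were counted in the same fits, and 0 of them passed the threshold for genotype in epithelium or stroma. In epithelium, 9 hemidesmosome and basement membrane genes had a median log2 fold change of 0.45 (0.44 without region 23), led by Plec at 0.70 ± 0.27, Lamb3 at 0.68 ± 0.29 and Itgb4 at 0.63 ± 0.34. Plec links keratin filaments to hemidesmosomes, Lamb3 is a chain of laminin-332 and Itgb4 is its receptor. The 12 desmosome genes had a median of 0.18, with Dsg1b at -0.42, Dsp at 0.41 and Perp at 0.66. The 12 other stratified keratins had a median of -0.11, with Krt79 at -0.39, Krt78 at -0.36 and Krt80 at 0.67.

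Genes of the later squamous program gave no call either. The 23 genes of the cornified envelope and late differentiation had a median of -0.07, with Sprr1a, an envelope protein, at 1.26 ± 0.44, Ly6d at 0.49 ± 0.28 and Hrnr at -0.28 ± 0.21. The 16 regulators had a median of 0.23, with Klf4 at 1.50 ± 0.57, Barx2 at 1.19 ± 0.41 and Sfn at 1.10 ± 0.39. All had edgeR adjusted p-values of at least 0.592. Without region 23 the log2 fold changes were 1.06 for Sprr1a, 1.51 for Klf4, 1.18 for Barx2 and 0.97 for Sfn. The 12 columnar genes had a median of 0.31 and the 10 fibroblast genes one of -0.33, with Dcn at -0.87 ± 0.25, and their part in the other values was not tested.

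Il33, an epithelial cytokine, and Klf9, a thyroid hormone target, were read in the same libraries because the study ties them to squamous epithelium. In PV/N epithelium Il33 had a log2 fold change of 1.58 ± 0.38 (edgeR adjusted p = 0.312) and Klf9 one of -1.03 ± 0.22 (edgeR adjusted p = 0.164). Klf9 passed the threshold with DESeq2 (adjusted p = 0.0100) and with age as a covariate in edgeR (adjusted p = 0.0337). Without region 23 the values were 1.51 and -1.02. In region 23 itself Il33 had 51 counts, 6.08-fold above the median of the others, and Klf9 had 18 counts, 0.920-fold.

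Over the 60 epithelial regions the 45 pairwise correlations of log2 CPM among the 10 genes had a median r of 0.27, and of 0.17 without region 23. Points share libraries and depth, so these are descriptions. The target most like the mean of the 10 genes, among 14534 above background in at least 3 regions, was Sesn3 (r = 0.70, and 0.67 without region 23). Gm46735, Gm51592, Ube2d2b, Tnfrsf13c, Pramel34, 4930555G01Rik, Zfp385b, Gm10354 and LOC118567641 followed at 0.58 to 0.60. No gene of the squamous lists was among these 10.

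A pair of second-plate regions held the same pattern as region 23. Region 101, labelled PV3 stroma, had 113 counts for Krt5, 167 for Krt15, 52 for Krt14, 48 for Krt17, 42 for Col17a1 and 11 for Trp63. These were 39.7-, 43.8-, 21.5-, 16.9-, 18.4- and 4.67-fold above the median of the other epithelial wells of that plate. Region 102, labelled PV3 epithelium, had 108, 128, 61, 37, 43 and 15 counts, or 25.4-, 22.5-, 16.9-, 8.69-, 12.6- and 4.26-fold. Here too the medians, 5.46 to 9.09 CPM, were near background, so these folds are lower bounds. Both scored as epithelium. In each, 6 of the 10 genes were at least 4-fold higher and above the limit, against 0.676% of all targets in region 101 and 0.486% in region 102. In each, 8 of 10 exceeded the limit, beside 66.1% and 55.6% of all targets.

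Krt13, Krt4, Krt6a and Dsg3 were under 4-fold in these regions too. Krt13 had 6 and 9 counts, 1.52- and 1.53-fold, while Krt6a reached 14 counts and 3.29-fold in region 102. By the label of the next well, both regions would be PV3 epithelium. In the other 32 epithelial wells of the stretch Krt5 lay at 1.56 to 13.5 CPM, against 172 to 270 CPM in these. Krt13 had 30, 54 and 17 counts in regions 139, 141 and 144, labelled WT4 epithelium, PV6 stroma and WT5 epithelium, and the next wells of all 3 are labelled PV6 epithelium. They lay at 22.6 to 47.6 CPM, against 3.46 to 25.1 CPM in the other 31 epithelial wells. No label was reassigned, and no test was run on these wells.

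**Figure D4:**
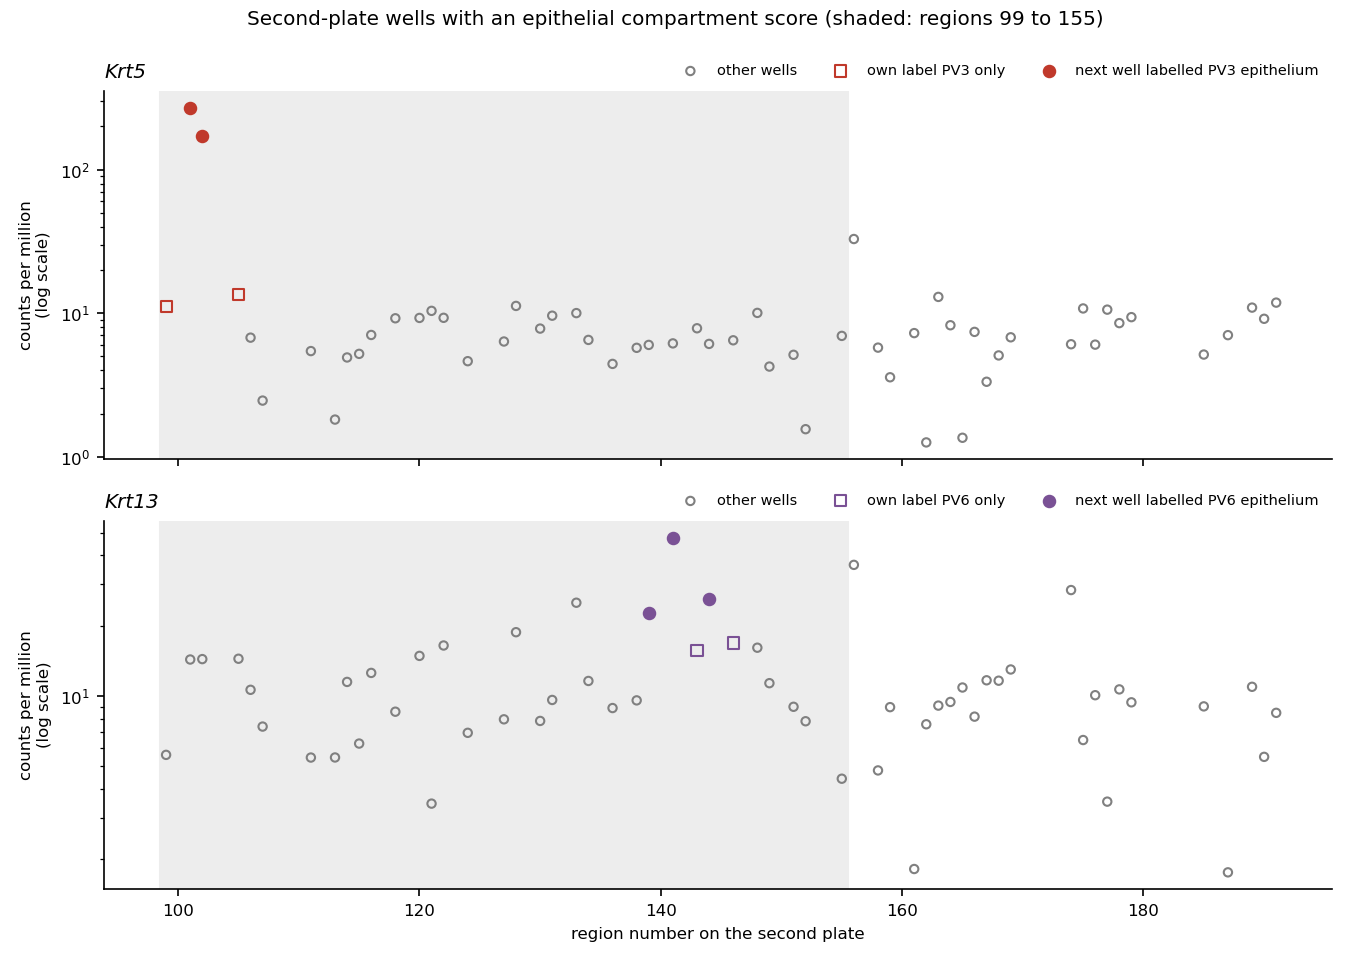
Krt5 and Krt13 in CPM (log scale) in each second-plate well whose compartment score is epithelial, by region number, with regions 99 to 155 shaded. Filled points are wells whose next well is labelled PV3 (Krt5) or PV6 (Krt13) epithelium, and squares are wells with that mouse in their own label only. The 2 filled Krt5 points lie above 172 CPM, and both sets of squares lie below the filled points.

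Targets that were high in region 23 were partly those of regions 101 and 102. At least 4-fold higher and above the limit were 217 targets in region 23, 135 in region 101 and 97 in region 102. Regions 23 and 101 shared 48 (22.1% and 35.6% of each list), 23 and 102 shared 45 (20.7% and 46.4%), and 101 and 102 shared 65 (48.1% and 67.0%). The 41 in all 3 included the 6 basal genes. Also among them, named after their values were seen, were Sprr1a (6.43-, 12.6- and 7.77-fold in regions 23, 101 and 102), Ly6d (6.07-, 5.24- and 5.84-fold), Sfn (4.06-, 6.38- and 8.13-fold), Barx2 (4.30-, 7.25- and 6.42-fold) and Il33 (6.08-, 4.51- and 4.78-fold). Of these, Sprr1a, Sfn, Barx2 and Il33 were higher in another first-plate epithelial region than in region 23, and Ly6d was not, with at most 19.9 CPM elsewhere against 52.1 CPM. Some of the 41 that lie outside the gene lists had larger folds than these in all 3 regions. Examples are Prap1 (17.85-, 52.9- and 35.4-fold) and Wnt7a (9.80-, 13.2- and 13.4-fold). Of the 23 genes of the cornified envelope and late differentiation, 7 were above the limit in region 23, 12 in region 101 and 6 in region 102. Over all targets the shares above the limit in these regions were 49.3%, 66.1% and 55.6%. In the other epithelial regions of either plate the median was 3 of the 23 genes. Their summed level was 564 CPM in region 23, against 142 to 519 CPM in the other first-plate epithelial regions. It was 523 CPM in region 101 and 430 CPM in region 102, within the 155 to 844 CPM of the other epithelial wells of that plate.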

How the data were processed

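The authors profiled regions of fixed mouse uterus with the GeoMx mouse whole-transcriptome panel. The deposited raw table holds expected counts per target from the authors' pipeline, with 0 replaced by 1, and the per-region files hold deposited probe counts with true zeros. Per the labels' processing notes, R 4.1.2, Space Ranger and the build mm10 were named. The normalised table, a deposited signal scaled by each region's upper quartile, served only for its list of 14881 targets, which holds 3 of the 10 genes. Gene names are those of the files.

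Target counts were summed per mouse and compartment on the first plate and rounded. They were tested over 19962 targets by the edgeR 4.0.16 quasi-likelihood test under R 4.3.3 (two-sided, TMM scaling, Benjamini-Hochberg adjustment, threshold 0.05). No filter on low counts was used, since it would drop genes high in few regions. The typical region of a mouse was its median region log2 CPM (prior count 2), tested by limma 3.58.1. Exact permutation tests were run over mice with scipy 1.17.1. Region values were set against the limit from 210 negative probes taken from the deposited probe counts, and intervals are exact Poisson at 95%, for counting error only. All 10 genes are named. Of each further list the 3 genes with the lowest p are named, and 10 targets by correlation with the mean of the 10 genes. Tests were checked on simulated data. The labels name 14 animals and the design text 13, and those of the labels were used. The genes and lists were chosen with earlier results of these data known. Alternatives were DESeq2 1.42.0, other scalings, filters, plates, age, detection limits, and each mouse left out. Leaving out region 23, leaving out the 57 displaced-looking wells and true-zero probe counts were added after the data were seen.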

Additional observations from a re-analysis of the deposited data

Results flagged for a closer look

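In PV/N epithelium, PV3 lay apart from the other 5 mice for Krt5, Krt14 and Krt15, with a gap to the next mouse of 0.754, 0.703 and 0.686 of the group's whole range. In PV/N stroma, PV4 lay apart as the lowest mouse for Col17a1, with a gap of 0.7 of the range. These were 4 of 40 groups examined, and chance sets apart about 1 in 20 groups. On the second plate, which entered none of the main comparisons, 8 of the 10 genes exceeded the limit in region 101 and 8 in region 102. There too Krt13 had 30 counts in region 139, 54 in region 141 and 17 in region 144, all above the limit.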

How the results depend on the processing

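None of the 10 genes passed the threshold for genotype under any alternative run. The lowest adjusted p was 0.141 in epithelium and 0.672 in stroma. In epithelium 265 of 273 alternative fits of these genes gave an adjusted p. The missing values were those of DESeq2, among them Krt5, Krt14 and Krt15, so it could not call those genes. Targets called in epithelium numbered 41 with DESeq2, 1 with limma over regions and 16 with age as a covariate, and in stroma 1 on both plates without the 57 wells, 6 with limma over regions and 8 with age. Between compartments 5296 were called on both plates as labelled, where Krt6a was no longer called (-0.10), and 8858 without the replicate block, where Krt14 turned to 0.13 and the genotype by compartment term of Krt4 to -0.03. A limit of 2 times the negative-probe mean put 26.8% of pairs above it in PV/N epithelium, 20.3% in N/N epithelium, 32.4% in PV/N stroma and 26.4% in N/N stroma, and a limit of 3 geometric SDs 3.23%, 0%, 0.476% and 0%.

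In epithelium, without region 23 the fold change turned for Krt14 (-0.13), Krt17 (-0.10) and Dsg3 (-0.03), and the per-mouse difference for Krt17 (-0.02). Both plates gave 0.23 for Krt6a (0.00 without the 57 wells), the second plate 0.23 for Krt4 and 0.63 for Krt6a, limma over regions -0.01 for Krt17, and Dsg3 was -0.02 with true zeros and -0.10 with upper-quartile scaling. In stroma Krt13 was 0.08 with DESeq2, 0.22 with age, 0.03 with the authors' targets, 0.13 without the 57 wells, 0.00 with filterByExpr, 0.02 with upper-quartile scaling, 0.20 with limma on means, 0.05 with limma over regions and 0.33 after background subtraction. Trp63 there was 0.00 with DESeq2, 0.37 and 0.13 with the limma fits and 0.08 after subtraction. Krt6a was 0.03 with age, 0.01 with limma on means and 0.15 after subtraction, Krt4 0.20 and 0.02 and Dsg3 0.06 and 0.02 with the limma fits. Both plates as labelled gave Krt17 0.39, Krt13 0.37, Trp63 0.01, Dsg3 0.10 and Col17a1 0.30 in stroma (Trp63 0.01 between compartments), and the second plate alone 0.79, 0.48, 0.07, 0.25 and 0.84.

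Leaving out one mouse at a time gave 0 to 8 calls in epithelium (8 without PV6), 0 to 5 in stroma (5 without PV4), and 0 to 2 and 0 to 1 for the typical region. In epithelium fold changes ran from -0.07 to 2.02 for Krt5, -0.18 to 1.70 for Krt14, -0.11 to 0.51 for Krt17, -0.04 to 0.54 for Trp63, -0.06 to 0.13 for Dsg3 and -0.02 to 1.50 for Col17a1, the lowest without PV3 (Dsg3: WT1). For the typical region Krt17 ran from -0.08 to 0.21 and Dsg3 from -0.08 to 0.12. In stroma Krt5 ran from -0.04 to 0.34, Krt14 from -0.08 to 0.26, Krt15 from -0.27 to 0.29, Krt13 from -0.21 to 0.23, Krt6a from -0.39 to 0.05, Trp63 from -0.28 to 0.02 and Dsg3 from -0.29 to 0.05, and for the typical region Krt15 from -0.04 to 0.28, Krt17 from -0.33 to 0.00, Krt13 from -0.01 to 0.36, Krt4 from -0.14 to 0.27, Krt6a from -0.20 to 0.09 and Dsg3 from -0.01 to 0.23. Pairs above the limit ran from 6.55% (without PV3) to 16.3% in PV/N epithelium, 4.21% to 9.09% in PV/N stroma and 1.82% (without WT5) to 5.00% in N/N stroma. The cause was not tested.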
